A study of Mus musculus with 32 samples.

Results

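Poly(A)-selected RNA sequencing compared the lungs of 6 Bmal1 knockout (KO) mice with those of 6 wild-type (WT) mice. These 12 libraries, 1 for each mouse, are the PolyA columns among the 32 libraries of the series. Every mouse was an adult between 8 and 18 weeks of age, labelled female, and raised in the submitters' own colony. WT animals were C57b/6. For the KO animals the labels give neither the allele, nor the tissues in which the gene was removed, nor the strain background, and the time of day at which lungs were taken is not given for either group. The same 12 lungs also gave 12 libraries made after removal of ribosomal RNA (RiboZero), which served as a comparison.

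BMAL1, encoded by the gene Arntl, is a DNA-binding activator at the core of the circadian clock. With its partner CLOCK or NPAS2 it binds E-boxes, of which CACGTG is the best known form, and switches on the Period, cryptochrome and REV-ERB genes. Period and cryptochrome proteins shut down BMAL1 itself, while the REV-ERB receptors repress a second set of genes that the ROR receptors activate. In the lung, BMAL1 is best known from airway club cells, where it restrains neutrophil-attracting chemokines.

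The libraries held 29924271 to 41548759 estimated counts. WT and KO did not differ beyond their spread in total count, or in the share of counts from mitochondrial genes, ribosomal protein genes or the 100 most abundant genes (adjusted exact permutation p = 0.833 for each of the 4 measures, n = 6 and 6). Lung identity was clear in every library: transcripts of the surfactant gene Sftpc reached at least 10132 CPM (counts scaled to the TMM-adjusted library size) and those of the alveolar type 1 gene Ager at least 1811 CPM, while the liver gene Alb did not exceed 1.2 CPM. Pulmonary vein cardiomyocyte, plasma cell and erythroid markers varied several-fold among libraries of 1 genotype. KO 6 is labelled female but held 0.0743 CPM of Xist, the RNA that silences an X chromosome in females, against 401 to 540 CPM in the other 11 libraries. WT 2 stood apart from the other WT libraries in airway and muscle genes, as described beside the results it touches. Calls that were lost or gained without either library are given beside some results and not beside all.

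Arntl transcripts were reduced but far from lost in KO lungs. The level per library was lowest at 31.9, in the middle at 36.2 and highest at 37.9 CPM in WT, and 26.8, 29.1 and 32.4 CPM in KO. The KO values sat lower, with a small overlap of the groups. The log2 fold change was -0.27 (SE 0.0612, adjusted p = 0.0262, quasi-likelihood test of edgeR, Benjamini-Hochberg adjustment over 17211 rows, as for every adjusted p of a gene below), and without KO 6 the adjusted p was 0.0611. RiboZero libraries of the same mice gave a log2 fold change of -0.83 for Arntl. The difference of these values was 0.57 on the log2 scale, with an adjusted p of 0.000474 when each mouse served as its own block and 0.11 without the block. Arntl spans chr7:113207465-113314126 (GRCm38), and a gene-level count cannot show which of its exons the remaining transcripts contain.

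Among genes that the clock drives directly, the REV-ERB receptors had the steepest falls. Nr1d1, which encodes REV-ERB alpha, had 27.4, 32.9 and 66.6 CPM (lowest, median, highest) in WT and 0.457, 0.86 and 1.45 CPM in KO. Every KO library lay below every WT library, and the fall was 42.4-fold (fitted folds, here and below, follow the group means and not the medians; log2 fold change -5.40, SE 0.307, adjusted p = 7.93e-07). Its paralogue Nr1d2, encoding REV-ERB beta, went from 27 to 52.7 CPM in WT to 2.66 to 3.62 CPM in KO, an 11.4-fold fall (log2 -3.52, SE 0.171, adjusted p = 1.85e-07).

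Npas2 and Cry1, which REV-ERBs are known to repress, moved the other way. Npas2, the partner that can replace CLOCK, rose 3.49-fold, from 24.4 to 34.8 CPM in WT to 93.3 to 108 CPM in KO (adjusted p = 1.85e-07). Cry1, a cryptochrome repressor, rose 2.87-fold from 22.6 to 29.3 CPM to 69.1 to 86.3 CPM (adjusted p = 1.85e-07). In both genes the groups were far apart relative to the spread among mice.

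The Period genes did not move as a group. Per2 rose 2.28-fold, from a WT median of 79.4 CPM to a KO median of 172 CPM, with the highest WT library at 103 and the lowest KO library at 109 CPM (adjusted p = 0.00711). Per1 had a log2 fold change of -0.39 (adjusted p = 0.191) and Per3 of -0.58 (adjusted p = 0.055), and neither passed the test. Cry2 at 0.32 (adjusted p = 0.12), Clock at 0.26 (adjusted p = 0.103) and Rora at -0.16 (adjusted p = 0.71) did not pass either.

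Of the 8 clock output regulators, Bhlhe41 and Wee1 fell. Bhlhe41 encodes DEC2, a repressor that competes for E-boxes. Its level was 7.81 to 11.4 CPM in WT and 4.2 to 5.93 CPM in KO, without overlap (log2 -0.83, SE 0.112, adjusted p = 0.00126). Wee1, a kinase that delays mitosis, had a log2 fold change of -0.76 (adjusted p = 0.0457) with overlapping groups, and lost its call in 14 of 27 alternatives. Tef (0.26, adjusted p = 0.0575), Nfil3 (-0.06, adjusted p = 0.916), Bhlhe40 (-0.53, adjusted p = 0.142) and Ciart (-0.01, adjusted p = 0.988) did not pass.

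**Figure D1:**
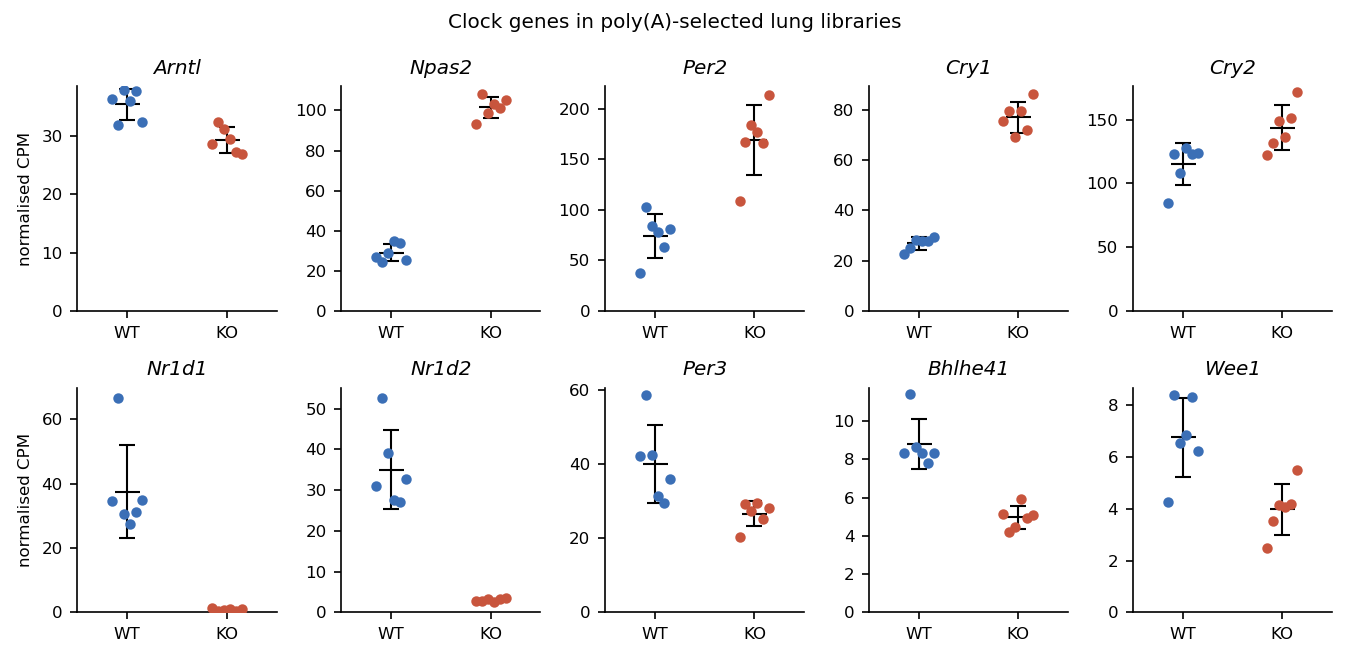
Level of 10 clock genes in each of the 12 PolyA libraries, in normalised CPM on linear axes that start at 0; blue points are WT mice and red points KO mice, and the bars show the mean and SD (n = 6). Nr1d1 and Nr1d2 lie near 0 in all KO mice, Npas2, Cry1 and Per2 lie above WT without overlap, and Arntl itself overlaps between the groups.

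Promoters of 3 of these genes are shown because they moved in different directions: 1 gene that rose (Cry1) and a pair that fell (Bhlhe41 and Nr1d1). Each sequence runs from 250 bases before to 50 bases after the start site (RefSeq, GRCm38.p6, minus strand, 5′ to 3′), with the E-box letters CACGTG in capitals. The windows are chr10:85185005-85185304 for Cry1, chr6:145865371-145865670 for Bhlhe41 and chr11:98775328-98775627 for Nr1d1.
Cry1: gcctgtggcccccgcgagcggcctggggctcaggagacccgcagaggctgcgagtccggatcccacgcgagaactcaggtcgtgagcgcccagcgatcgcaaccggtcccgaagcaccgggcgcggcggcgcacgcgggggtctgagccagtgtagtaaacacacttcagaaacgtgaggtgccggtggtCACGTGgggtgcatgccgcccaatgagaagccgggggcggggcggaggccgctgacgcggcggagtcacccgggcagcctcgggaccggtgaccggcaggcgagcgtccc
Bhlhe41: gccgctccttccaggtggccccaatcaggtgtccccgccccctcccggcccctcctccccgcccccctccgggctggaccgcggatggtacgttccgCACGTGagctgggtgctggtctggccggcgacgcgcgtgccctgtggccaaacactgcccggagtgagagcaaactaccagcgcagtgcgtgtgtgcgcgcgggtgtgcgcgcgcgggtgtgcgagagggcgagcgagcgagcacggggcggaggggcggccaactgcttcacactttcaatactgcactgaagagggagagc
Nr1d1: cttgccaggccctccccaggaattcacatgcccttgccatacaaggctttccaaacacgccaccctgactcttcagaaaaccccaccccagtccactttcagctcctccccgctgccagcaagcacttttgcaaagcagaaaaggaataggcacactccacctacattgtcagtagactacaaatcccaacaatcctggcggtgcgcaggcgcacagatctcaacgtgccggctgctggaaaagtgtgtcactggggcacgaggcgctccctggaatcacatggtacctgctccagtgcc
Cry1 and Bhlhe41 each hold 1 copy, and the Nr1d1 window has none, which says only that these letters are not in this stretch. CACGTG, which reads the same on both strands, was found in 11% of the promoters of tested genes, in 8.87% of the 203 promoters of genes called higher and in 11.6% of the 293 promoters of genes called lower. The element TTATGTAA, the type of site bound by the PAR bZIP factors and NFIL3, was searched on both strands. It was found in 0.766% of the promoters of tested genes, in 2 of those 203 (0.985%) and in 8 of those 293 (2.73%).

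Across the whole table, 694 of 17211 tested rows passed an adjusted p of 0.05 (4.03%). Of these, 279 were higher in KO (1.62%) and 415 were lower (2.41%). In 552 rows the 2 groups of libraries did not overlap (3.21%). Among protein-coding genes 265 were higher and 389 lower. The median log2 fold change over all rows was -0.003.

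The called protein-coding genes with the largest falls came from several unrelated families. Tex11, a meiosis gene on the X chromosome, fell 12.3-fold, from 0.858 to 1.32 CPM in WT to 0.0286 to 0.213 CPM in KO (adjusted p = 9.3e-05). Slc13a4, a sulfate transporter, fell 5.95-fold from 3.22 ± 0.957 to 0.543 ± 0.324 CPM (SD, n = 6) (adjusted p = 0.00122). Gkn3, a marker of arterial endothelium, fell 5.88-fold from 1.88 ± 0.336 to 0.318 ± 0.102 CPM (adjusted p = 3.65e-05). Each of these was low in every KO mouse.
Cyp2a5, a cytochrome P450 of the airway lining, fell by 2.11 on the log2 scale, which follows the means (56.9 ± 37 CPM in WT and 13.2 ± 3.62 CPM in KO, adjusted p = 0.00693). The medians were 36.4 and 13.4 CPM, since WT 2 (117 CPM) and WT 3 (88.6 CPM) lay above the other WT libraries (30.9 to 38.1 CPM). Without WT 2 the log2 fold change was -1.76 instead of -2.11 (adjusted p = 0.00595). The carboxylesterases Ces1g and Ces1b fell by 1.74 and 1.66 on the log2 scale. Cd163l1, a scavenger receptor, fell by 1.78, and the potassium channel subunit gene Kcnf1 by 1.63.

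Rps13 was the only ribosomal protein gene of 82 tested to be called, with a log2 fold change of -1.93 and levels of 5.02 to 7.16 CPM in WT against 1.12 to 2.04 CPM in KO. Ribosomal protein genes have near-identical processed copies between which the counting can split reads. Whether such splitting touched the value of Rps13 was not tested. Rps13 lies on chromosome 7, within 10 Mb of Arntl. In that window 14 of 145 tested rows were higher (9.66%) and 5 were lower (3.45%), compared with 1.62% and 2.41% over the table.

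A row known by its transcript identifier alone, ENSMUST00000093344, had the most extreme value and was singled out after its values were seen. It had 2013 to 5502 counts in the 6 WT libraries and 0 in all 6 KO libraries. Against the WT median of 134 CPM, KO was at least 1468-fold lower, with a floor of 3 counts per library. The lowest WT library had 59.1 CPM. In RiboZero the row had 788 to 1901 counts in WT and again 0 in KO. The tables used here pair it with no gene. Of 151 immunoglobulin rows, 4 were called lower and 0 higher (2.65%, near the 2.41% called lower over the table). Their median log2 fold change was -1.10, with a median SE of 0.862 against 0.0946 over all rows.

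The largest rises included an imprinted gene, secreted signals and chemokines. Crabp1, which binds retinoic acid in the cytoplasm, rose 14.3-fold from 0.376 to 0.661 CPM in WT to 3.94 to 9.75 CPM in KO (adjusted p = 3.35e-06). Snx31, a sorting nexin, rose 6.87-fold to a KO median of 10.8 CPM (adjusted p = 4.84e-06). Nnat, an imprinted gene for a small membrane protein, rose 4.46-fold from 11.5 to 15.3 CPM to 50.7 to 64.2 CPM and had the lowest adjusted p of the comparison, 9.39e-09.
Retnla, encoding the secreted protein RELM alpha of type 2 immunity, rose 5.64-fold. Its WT libraries held 44.2, 79.4 and 91.6 CPM (lowest, median, highest) and its KO libraries 194, 293 and 867 CPM (adjusted p = 0.00286). All KO mice were above all WT mice, but they differed more than 4-fold among themselves. Lingo4, Ntm, Calml3 and the little-expressed Fam19a4 were also among the largest rises, with log2 fold changes of 2.19, 2.12, 2.15 and 3.86.

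**Figure D2:**
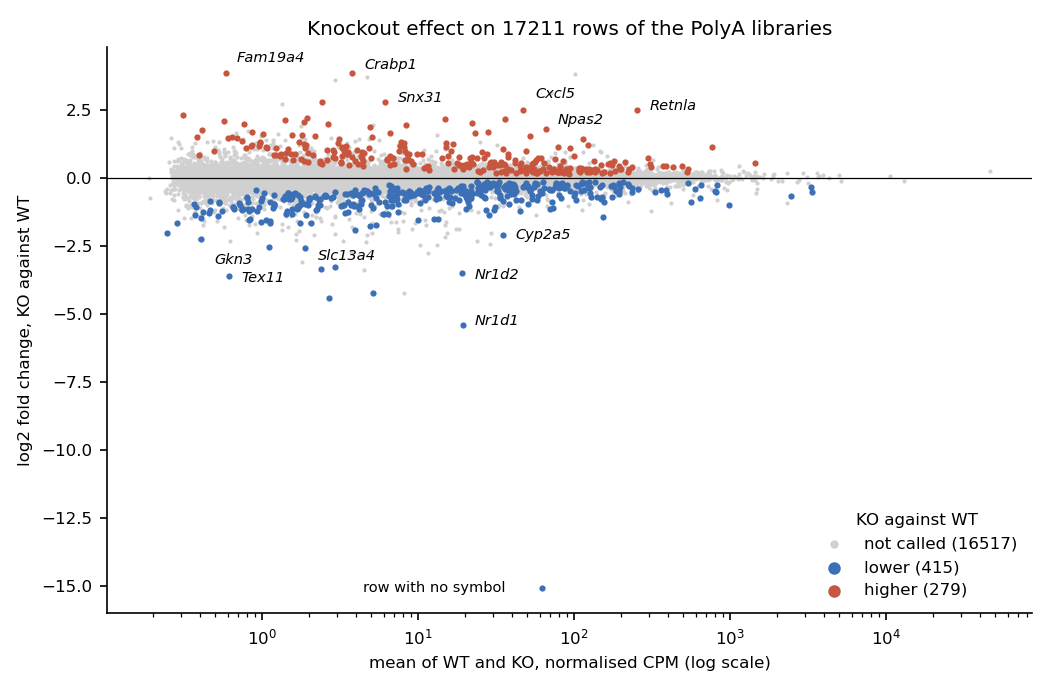
Log2 fold change (KO against WT) of each of the 17211 tested rows against its mean level in normalised CPM on a log axis. Red and blue points passed the test as higher (279) or lower (415); the lowest point is the row with 0 counts in all KO libraries, whose fitted value is not a bound.

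With all 12 libraries, markers of the lung's cell types were called lower more often than higher. Over 35 lists of markers, 251 tested rows gave 4 higher and 20 lower calls, or 1.59% and 7.97%, beside 1.62% and 2.41% over the table. Adventitial fibroblasts gave 6 of the lower calls and interstitial macrophages gave 4. Without WT 2, 10 of 20 ciliated and 2 of 10 club and secretory markers were called higher. In whole lung, fewer cells of a type and less RNA per cell cannot be told apart. These marker lists, like the pathway lists below, were chosen with earlier results of these data known.

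Adventitial fibroblasts, which surround vessels and airways, had the clearest fall. Of their 8 markers 6 were called lower and none higher, with a median log2 fold change of -0.77. Pi16, a marker of the progenitor-like state of these cells, fell 2.27-fold from 34.9 to 49.8 CPM in WT to 12.9 to 26.9 CPM in KO (adjusted p = 0.00104). Dpt, which encodes the matrix protein dermatopontin, fell 1.49-fold from 137 to 165 CPM to 87.9 to 114 CPM (adjusted p = 0.00101). Decorin (Dcn, -0.78), Col14a1 (-0.78), Clec3b (-0.76) and gelsolin (Gsn, -0.36) were the others called. Gsn makes up 84% to 89.5% of the list's counts, and its groups overlap. Summed over the other 7 genes, WT libraries held 509 to 678 CPM and KO libraries 336 to 417 CPM. The count was 6 of 8 without WT 2 and 6 of 8 without KO 6, and RiboZero gave 4 of 8. Of the 6 markers of alveolar fibroblasts, the matrix cells of the gas exchange region, 0 were called, and their median was 0.14.

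Interstitial macrophages, which live in the tissue between alveoli and around vessels, also gave lower calls. Of their 7 markers, 4 were called lower, with a median of -0.64. The folate receptor gene Folr2 fell 1.97-fold, from 5.18 to 6.63 CPM to 2.32 to 4.01 CPM (adjusted p = 0.00155). The complement genes C1qa (-0.66) and C1qb (-0.65) had adjusted p-values of 0.0407 and 0.0401. Only Folr2 kept its call without KO 6, while 5 of the 7 were called without WT 2, and RiboZero gave 1 of 7. Among alveolar macrophage markers 2 of 10 were called lower, the integrin gene Itgax (-0.54) and the mannose receptor Mrc1 (-0.38, lost in 11 of 27 alternatives), and the list's median was -0.15. No marker of monocytes, dendritic cells, T cells, B cells or plasma cells was called. WT 6 and KO 1 were the high libraries for B and T cell genes such as Cd79a (63.1 and 79.3 CPM).

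Alveolar type 2 cells, which secrete surfactant, showed a split. Sftpa1, a collectin of the surfactant, fell 1.58-fold from 2589 to 3674 CPM to 1534 to 2298 CPM (adjusted p = 0.00457). Sftpd (-0.50) and Napsa (-0.43), a collectin and a protease that processes surfactant protein, also fell. Their calls were lost in 10 and 11 of 27 alternatives. RiboZero called 1 of the 12 type 2 markers lower and 1 higher. The chemokine Cxcl15 rose 1.45-fold from 1028 to 1359 CPM to 1456 to 1964 CPM (adjusted p = 0.00395). The lipid-spreading surfactant proteins had log2 fold changes of -0.13 (Sftpc) and -0.18 (Sftpb) and did not pass. No alveolar type 1 marker of 10 was called, and the median was -0.01.

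Few endothelial markers were called. None of 12 pan-endothelial and none of 10 capillary markers was called, with medians of 0.14 and 0.12. The single calls were Vcam1, an adhesion molecule, at 88 to 118 CPM in WT and 50.2 to 71.3 CPM in KO (adjusted p = 0.0021), the lymphatic gene Reln (-0.68, adjusted p = 0.04) and Gkn3. Trpc6, a cation channel of pericytes, rose by 0.48 (adjusted p = 0.00739). No smooth muscle marker was called. Over the 23 cell type lists without a call, 27 of 148 markers had an unadjusted p under 0.05 with edgeR, DESeq2 called 4 and limma-voom 0.

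Markers of ciliated and secretory airway cells all had positive fold changes, and few passed the test. Of 20 markers of ciliated cells, 1 was called higher (Ccdc113, 0.53, adjusted p = 0.0321), although all 20 were above 0 with a median of 0.29. Of 10 club and secretory cell markers none was called, all 10 were above 0, and the median was 0.44. WT 2 held the most airway RNA of its group: the club and secretory list summed to 69782 CPM there, against 37798 to 48624 CPM in the other WT libraries and 44691 to 64825 CPM in KO. Without WT 2, 10 of 20 ciliated and 2 of 10 club and secretory markers were called higher. The master regulator of cilia, Foxj1, changed from an adjusted p of 0.233 to 0.00467. The RiboZero library of WT 2 also had the most club and secretory RNA of the WT group, 17013 CPM in a group of 10334 to 17013 CPM.

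**Figure D3:**
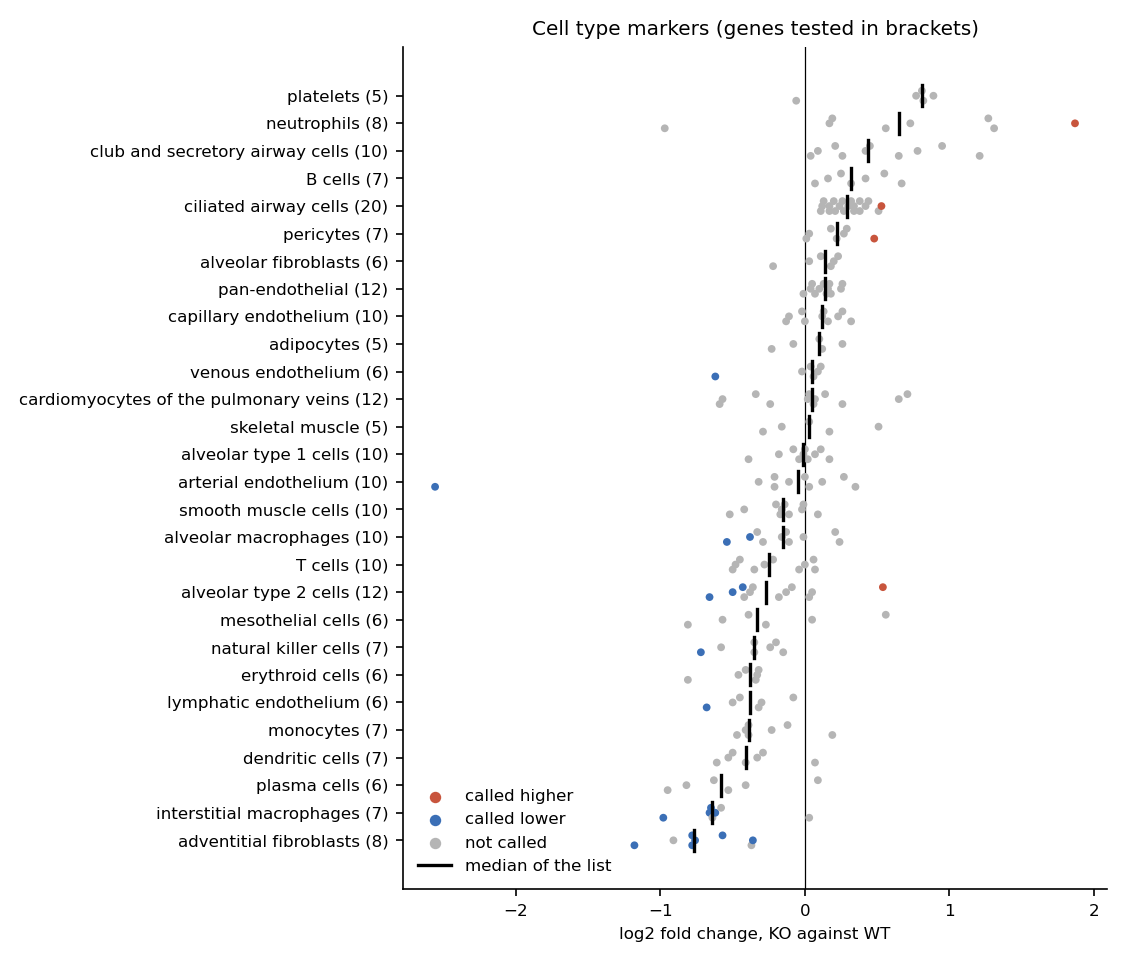
Log2 fold change (KO against WT) of every tested marker in the cell type lists with at least 5 tested genes; each point is a gene, coloured where it passed the test, and the black tick is the median of the list. Adventitial fibroblasts and interstitial macrophages lie lowest, while all ciliated markers lie above 0 with 1 call.

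Elastic fibre genes changed in both directions. Of 21 tested, 6 were lower and 2 higher (38.1%, against 4.03% over the table), with 7 lower without WT 2 and 5 without KO 6. Their summed level had medians of 2933 CPM in WT and 2899 CPM in KO. Ltbp4, which anchors TGF-beta and guides elastin assembly, was the most abundant of those that fell. Its 656 to 808 CPM in WT became 348 to 422 CPM in KO, a 1.86-fold fall with an adjusted p of 4.84e-06. Fibulin 1 (Fbln1) fell 2.21-fold from 80.3 to 109 CPM to 37 to 57.2 CPM (adjusted p = 0.000139), and Efemp1, Fbln2, Ltbp2 and Loxl4 fell by 0.67, 0.49, 0.36 and 0.68 on the log2 scale. In the opposite direction, the microfibril gene Mfap4 rose 2.18-fold from 354 to 720 CPM to 853 to 1367 CPM (adjusted p = 0.00409), and Fbn2, a fibrillin of growing tissue, rose by 1.14. Elastin itself (Eln, 0.16, adjusted p = 0.669) did not pass.

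Among 38 collagen genes, 6 were lower and none higher (15.8%, against 4.03% over the table), and the median was -0.01. The lower calls numbered 5 without WT 2 and 5 without KO 6. RiboZero gave 4 higher and 6 lower of 36. In PolyA the 6 were the fibril-associated and minor collagens Col14a1, Col12a1 (-0.79), Col27a1 (-0.61), Col15a1 (-0.69), Col16a1 (-0.29) and Col28a1 (-1.17). Col28a1 and Col16a1 lost their calls in 14 and 13 of 27 alternatives. The main fibrillar genes Col1a1 (0.14) and Col3a1 (-0.27) did not pass. The summed adventitial marker level given above was lower in the same libraries, and its part in the matrix values was not tested.

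Several complement genes fell. Of 17 complement and coagulation genes, 6 were lower and 1 was higher (41.2%, against 4.03% over the table), with a median of -0.44. C1ra and C1s1, proteases that start the classical pathway, had 144 to 189 and 213 to 253 CPM in WT, and 88.3 to 105 and 152 to 179 CPM in KO (adjusted p = 0.000101 and 0.000401). C4b (-0.62) and C2 (-0.73), which form the next enzyme of that pathway, fell without overlap. F3, the tissue factor that starts clotting, fell by 0.98, and coagulation factor F5 rose by 1.29 (adjusted p = 0.038, and 0.0528 without WT 2). C3 at -0.44 missed the threshold (adjusted p = 0.0786). The 6 lower calls numbered 6 again without WT 2, without KO 6 and in RiboZero. Sums over the list were 2990 to 3941 CPM in WT and 2469 to 3070 CPM in KO.

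**Figure D4:**
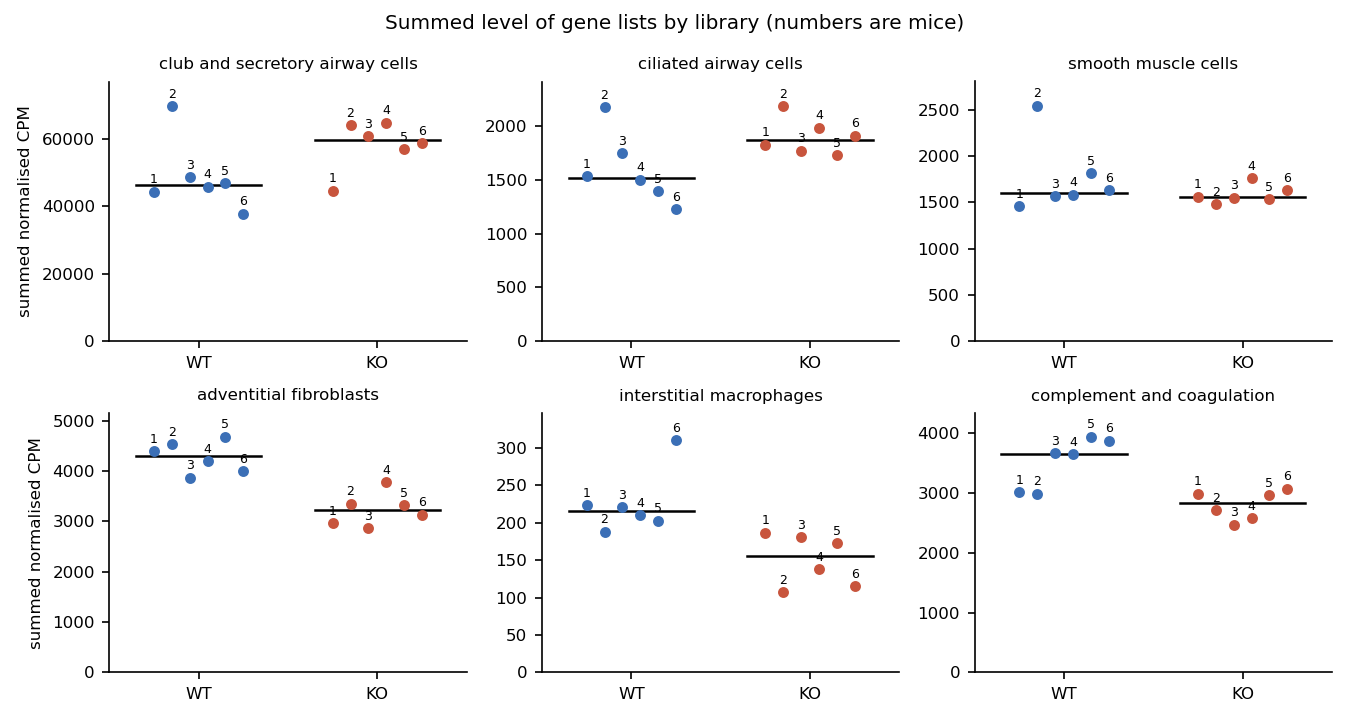
Summed level of 6 gene lists in each library, in normalised CPM on axes that start at 0; numbers are mice and the line is the group median. WT 2 stands above the other WT mice in the airway and smooth muscle lists, whereas the adventitial sum, which is mostly Gsn, is lower in every KO mouse than in every WT mouse.

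Chemokine ligands split in both directions, with 3 higher and 4 lower of 33 (21.2%, against 4.03% over the table). Cxcl5, which attracts neutrophils, rose 5.58-fold from 6.57, 12.7 and 22.1 CPM (lowest, median, highest) in WT to 37.8, 61.2 and 169 CPM in KO (adjusted p = 0.00499). Cxcl3, a related ligand, rose from 0.17 to 0.408 CPM to 0.68 to 1.89 CPM (adjusted p = 0.00165). All KO mice exceeded all WT mice for both. Cxcl1 and Cxcl2, ligands of the same receptor, had log2 fold changes of -0.81 and -0.55, and neither passed. Among 8 neutrophil markers tested only Retnlg was called (1.87, adjusted p = 0.0152); S100a8 and S100a9 had values of 1.27 and 1.31 and adjusted p-values of 0.085 and 0.0704. Without KO 6, whose neutrophil sum was the lowest at 44 CPM, 3 of the 8 were called higher. The lower chemokines were Cxcl14 (-1.13, adjusted p = 0.00142), Ccl9 (-0.79), Cxcl16 (-0.31) and the eosinophil attractant Ccl11 (-0.75). Without KO 6 only 1 of these 4 was called.

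Metabolic lists held calls in both directions. In fatty acid oxidation 2 of 19 genes rose (10.5%, against 4.03% called over the table), and 4 rose without WT 2. Among the 2 was Acot1, a cytosolic thioesterase, from 49.4 to 68.8 CPM to 84.7 to 105 CPM. Xenobiotic enzymes split, with Aldh3a1 rising 2.19-fold (adjusted p = 0.00101) and Cbr3 by 0.43 on the log2 scale, while Cyp2a5, Gsta3 (-0.72) and Gstt1 (-0.34) fell. These are 5 of 23 genes (21.7%, against the same 4.03%). Without WT 2 the counts were 4 higher and 5 lower, and without KO 6 they were 1 and 3. Several of these are airway genes, and the club and secretory sums are given above. Their part was not tested.

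Oxidative phosphorylation genes lay just above 0, with 62 of 77 positive, a median of 0.04 and 2 calls (Sdhd and Ndufv3). The share called was 2.6%, below the 4.03% over the table. The antioxidant genes Gsr (0.24) and Gclc (0.31) were the 2 called of 19 NRF2 targets (10.5%), and neither was called without KO 6. No gene of cholesterol synthesis (22 tested), interferon response (20), antigen presentation (15), the unfolded protein response (12), heat shock (17) or NAD salvage (15) was called, nor were any of the 13 mitochondrially encoded genes. Without WT 2, 2 genes of cholesterol synthesis were called higher. Over the 10 pathway lists without a call, 16 of 146 genes had an unadjusted p under 0.05 with edgeR, DESeq2 called 5 and limma-voom 0. In fluid transport, where 0 of 13 were called, the goblet cell gene Clca1 reached 457 CPM in KO 4 but only 2.69 and 2.8 CPM in KO 3 and KO 6.

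Several lists lay mostly below 0 with few calls. All 30 proliferation genes had negative values, with a median of -0.42. Only 2 passed (6.67%, against 4.03% over the table), which were Ccnb2 (-0.64) and Cenpf (-0.60). Without KO 6, 1 was called. Of 22 immediate early genes, which respond within minutes to handling and stress, 20 were below 0 with a median of -0.51. Only 1 passed (4.55%, near the 4.03% over the table), which was Egr2 (-1.56, adjusted p = 0.036). It was not called without WT 2, nor without KO 6. Fos ran from 38.8 to 212 CPM in WT and from 19.6 to 130 CPM in KO, so that the groups overlapped widely. Of 12 glucocorticoid receptor targets 10 were below 0 (median -0.44) and 0 were called with edgeR, 4 had an unadjusted p under 0.05, and DESeq2 called 2. Among them Zbtb16, a transcription factor induced by glucocorticoids, had 17.9 to 27.1 CPM in WT 1 to 3, 282 to 300 CPM in WT 4 to 6, and 12.1 to 259 CPM in KO. The same WT libraries were split for Fkbp5 (15.8 to 43 against 129 to 165 CPM), Hif3a (3.53 to 4.9 against 15.9 to 19.8 CPM) and Cdkn1a (128 to 316 against 486 to 518 CPM). They were also split for Tsc22d3 (478 to 667 against 846 to 911 CPM) and Glul (355 to 486 against 699 to 712 CPM). The same held for Klf9 (64.3 to 98.8 against 110 to 132 CPM) and Lcn2 (85.7 to 146 against 169 to 401 CPM). For Nr3c1, Mt1, Mt2 and Errfi1 the values of WT 1 to 3 and WT 4 to 6 overlapped. The cause of the split was not tested. All 12 genes of the unfolded protein response and all 6 erythroid markers were also below 0, with medians of -0.12 and -0.38 and 0 calls.

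More genes fell than rose with all 12 libraries. Among protein-coding genes this surplus was present in each class of level, size of change and exonic length. The classes were counted over protein-coding genes and with all 12 libraries only. Lower calls outnumbered higher calls below 1 CPM (32 to 15), from 1 to 10 CPM (130 to 86), from 10 to 100 CPM (172 to 117) and at or above 100 CPM (55 to 47). As shares of the tested genes, lower and higher calls were 3.36% and 1.58% in the lowest class and 3.75% and 2.48% in the next. They were 2.04% and 1.39% from 10 to 100 CPM, and 2.63% and 2.25% at or above 100 CPM. Lower calls also outnumbered higher calls for absolute log2 changes under 0.5 (139 to 112), from 0.5 to 1 (171 to 91) and of at least 1 (79 to 62). They also did so in each of 3 classes of exonic length, by 130 to 109 in the shortest, 129 to 81 in the middle and 130 to 75 in the longest. Over all rows, cell type markers contributed 20 of the lower and 4 of the higher calls, and outside all lists the calls were 360 lower and 257 higher.

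When libraries were left out 1 at a time, the surplus of lower calls reversed only without WT 2. Without WT 2, 1066 rows passed, of which 620 were higher (3.58%) and 446 lower (2.58%), so that lower calls made up 41.8% instead of 59.8%. With any other single library left out, lower calls stayed more numerous than higher ones. Without KO 6, 260 were higher and 336 lower. Over all tested rows, WT 2 was the highest of the 6 WT libraries in 25.2%, and the other WT libraries in 9.96% to 22%. Without WT 2 the original calls were largely retained, with 263 of 279 higher and 370 of 415 lower.

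The direction of the imbalance also differed in the other preparation and in wider fits. RiboZero gave 307 higher and 272 lower calls of 16710 rows (3.46% called in all), and over the 15942 rows tested in both preparations the counts were 303 and 271, beside 261 and 381 in PolyA. That order turned without KO 6 (291 higher, 309 lower), was level without KO 2 (197 and 198), and was 299 and 257 without WT 2. A single fit of PolyA and RiboZero libraries gave 569 higher and 519 lower calls for the PolyA contrast, and a fit of all 32 libraries gave 961 and 603. Both count libraries of the same mouse as separate, and the wider one includes a NoSelect library of KO 6 whose tissue label is liver. With mice 3 to 6 alone they were 243 and 222. Without WT 2 and KO 6 together they were 525 and 422. At an unadjusted p under 0.05, all 12 libraries gave 1457 higher and 1641 lower rows.

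**Figure D5:**
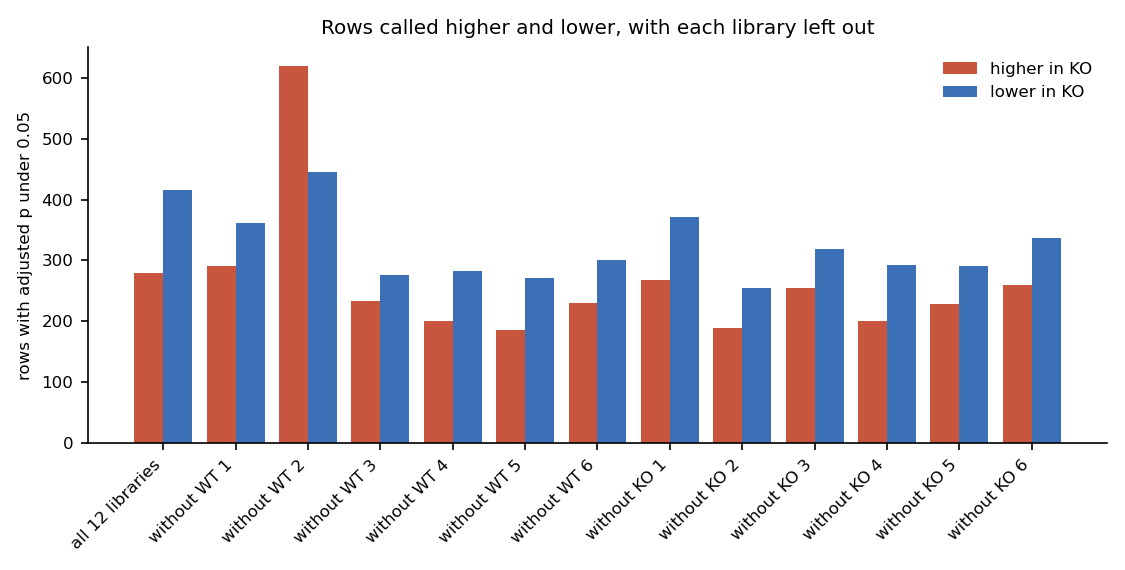
Number of rows with an adjusted p under 0.05 that were higher (red) or lower (blue) in KO, with all 12 libraries and with each library left out in turn. Lower calls exceed higher ones in every fit but the one without WT 2, with 620 higher and 446 lower.

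With edgeR, the knockout effect itself was not shown to differ between PolyA and RiboZero for more than 1 gene. In a fit of the 24 libraries, 0 of 18164 rows passed a test of the difference with edgeR, and 331 had an unadjusted p under 0.05. That fit counted the PolyA and RiboZero libraries of the same mouse as separate. With each mouse as a block, 1 row passed (0.00551%), which was Arntl, and 940 had an unadjusted p under 0.05. The DESeq2 test called 12 rows, most of them transcript rows without a symbol, and Arntl was among them.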

How the data were processed

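Per the labels' protocols, lungs were snap-frozen, RNA was extracted with TRIzol and RNeasy, and PolyA libraries were made with the TruSeq Stranded mRNA kit from 200 ng of RNA with 11 cycles of PCR. The authors deposited estimated counts as 1 table of 41687 rows (37751 gene and 3936 transcript identifiers). The submitters' processing notes name Salmon 1.4.0, UMI-tools 1.1.1 and build GRCm38, without their order. The annotation, and whether molecular identifiers were used to remove duplicates, are not given in the sources used here. Symbols were found for 37649 rows, and gene types, positions and lengths came from GENCODE M21.

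Estimated counts, of which 12.81% were not whole, were rounded. KO was tested against WT in R 4.3.3 with edgeR 4.0.16 (TMM, filterByExpr, glmQLFit, glmQLFTest, Benjamini-Hochberg, adjusted p under 0.05), with genotype alone in the model. The fit was tested on simulated counts. Alternatives used DESeq2 1.42.0, limma 3.58.1, other scalings and filters, thinning, other sets of libraries and leaving out each library. Of these, gene identifiers alone, leaving out WT 2 and KO 6 together, and RiboZero without WT 2 were chosen after seeing the data. Shares were compared with exact two-sided permutation tests (924 arrangements, scipy 1.17.1).

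The members and the 62 gene lists were chosen with earlier results of these data known. Named genes are the target, the clock lists, the 12 highest and 12 lowest called protein-coding genes without overlap and with at least 1 CPM, and up to 6 called or 3 abundant members of a list. Others were named after their values were seen, such as Clca1, Foxj1, S100a8, F5, Cxcl1, Eln and Fos. Some genes that the rule names are not reported here. Each library is 1 mouse.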

Additional observations from a re-analysis of the deposited data

Results flagged for a closer look

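Single libraries lay far from the other 5 of their group (a gap to the nearest one beyond Dixon's 95% critical share of the group's range) in 36 of 382 groups examined, or 9.42%. For independent normal values chance gives such a gap in about 1 group of 20. Most groups here are CPM of genes that vary together, so that rate is not a reference for the 9.42%. The rule looks at single libraries and does not flag a group that splits in the middle, such as WT for Zbtb16. WT 2 accounted for 11 of them and WT 6 for 10.

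WT 2 was the highest WT library for the airway genes Scgb1a1 (59143 CPM), Cyp2f2 (7599 CPM) and Scgb3a2 (1494 CPM). It was also highest for the muscle genes Acta2 (615 CPM), Tagln (432 CPM) and Tnnt2 (122 CPM), the cartilage gene Chad (86.6 CPM), Nr1d1 (66.6 CPM), Bhlhe41 (11.4 CPM) and the share of counts in the 100 most abundant genes (23.1%). It was lowest for Col12a1 (7.36 CPM).

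WT 6 was the highest WT library for the B and T cell genes Cd79a (63.1 CPM), Cd79b (38.1 CPM), Cd4 (39.5 CPM), Lck (36.1 CPM) and Tcf7 (52.7 CPM). It was also highest for C1qa (98 CPM), C1qb (93.2 CPM), C1s1 (253 CPM), Vcam1 (118 CPM) and the basal cell gene Krt15 (2.2 CPM). WT 1 was lowest for Csnk1d (181 CPM), Nfil3 (16.9 CPM) and Per1 (212 CPM), and WT 4 for Arntl2 (1.38 CPM).

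Among KO libraries, KO 6 was highest for Col28a1 (1.71 CPM), Nampt (90.9 CPM), Rora (62.7 CPM) and the total count (41548759). KO 1 was lowest for Clec3b (37.3 CPM) and Scgb1a1 (37760 CPM) and highest for Dapl1 (1.25 CPM) and Tcf7 (53.5 CPM). KO 2 was highest for Arntl2 (2.71 CPM), KO 4 for Alb (1.2 CPM) and KO 3 for Egr2 (9.57 CPM).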

How the results depend on the processing

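The total of 694 calls became 1381 with DESeq2 (625 higher, 756 lower), 1088 in 1 fit with RiboZero (569 higher) and 1564 in a fit of all 32 libraries (961 higher). Leaving out 1 library gave 442 to 1066 calls, with 186 to 620 higher and 254 to 446 lower; the extremes of the total came without KO 2 and without WT 2. Without WT 2 and KO 6 together, 525 were higher, and with mice 3 to 6 alone 222 were lower. Other scalings, filters, limma-voom and thinning kept the total between 570 and 709. The cause of these shifts was not tested. A number shared by a WT and a KO library marks separate animals, and deviations of equally numbered mice correlated at -0.19 to 0.264; with such a replicate block 617 rows were called. The difference between preparations gave 1 call with the mouse as replicate block and 12 with DESeq2, beside 0 otherwise. Of 88 called genes named by rule, 50 stayed called in each of 27 alternatives that tested them and 0 changed sign. Of the protein-coding calls, 47 were of genes under 1 CPM, where the counts behind a value are fewest.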
